A study of Mus musculus with 8 samples.

Results

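Monocyte genes were described in cells sorted from pups aged 1 week after in utero transplantation (IUT). The genes are 8 listed by symbol, Csf1r, Cx3cr1, Cd14, Ly6c2, Lyz2, F13a1, Fn1 and S100a4, of 52784 genes in the count table and of 25066 with a count in at least 1 library. All 8 were found. RNA was sequenced from 8 libraries, 1 for each origin of the cells and each treatment, and each library was a pool of cells from several pups. Dams were C57BL/6 females carrying the CD11c-DTR transgene, in which the Itgax promoter drives the diphtheria toxin receptor, and were mated to BALB/c males, so that all pups were F1 hybrids. In the DC-depleted pIUT group the dam received diphtheria toxin (DT, 5 ng/g, intraperitoneally) at E13, and dams of the DC control mIUT and DC control pIUT groups (in short mIUT and pIUT) received saline. At E14 the fetuses of these 3 groups received 5000000 bone marrow mononuclear cells in the liver, from B6 (CD45.1) donors for mIUT and from BALB/c donors for pIUT. Uninjected pups came from DT+ or DT- dams and had no IUT. Trafficked maternal cells (sorted by H2K-b) and recipient cells (sorted by H2K-d) were mononuclear cells from whole-body harvests. F1 cells carry both haplotypes, B6 donor cells carry H2K-b and BALB/c donor cells carry H2K-d, and the part of donor cells in the sorted fractions was not tested. Maternal or fetal origin and the dam or F1 genotype cannot be told apart, and neither can treatment and pool.

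Monocytes are circulating phagocytes that form in fetal liver and bone marrow and can become macrophages or dendritic cells in tissues. In mice, classical monocytes carry much Ly6C and enter inflamed tissue, whereas non-classical monocytes carry little Ly6C, much CX3CR1 and patrol vessels. Their growth and survival depend on the receptor for CSF1. None of the 8 genes belongs to monocytes alone: Lyz2, Cd14 and Ly6c2 are also used by granulocytes or their precursors, Csf1r and Cx3cr1 by macrophages and dendritic cells, F13a1 by megakaryocytes, and Fn1 and S100a4 by fibroblasts, with Fn1 also made by hepatocytes.

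Library totals lay between 38543457 and 47965130 estimated counts. Levels are given as CPM, the count scaled to a common library total after TMM, each with a 95% Poisson interval that covers counting error only, since no molecular identifiers were used. A count of 3 or fewer was taken as not detectable, which corresponds to 0.0547 to 0.105 CPM. There was 1 library in each group, so that differences between conditions have no replicate check and were not tested, and a difference of at least 4-fold was used as a description of these libraries. Of genes with at least 10 CPM in all 7 other libraries, 9.51% were under 1 CPM in the recipient uninjected library and 4.86% in the maternal DC control mIUT library, against 1.26% or less in each of the other 6. The recipient uninjected library stands apart in this respect, and the comparisons of recipient cells that do not use it are those among the 3 IUT groups. The maternal DC control mIUT library had the next-highest share, which bears on each comparison that uses it. In these bulk RNA samples fewer cells of a type and less RNA per cell cannot be told apart.

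Near copies could share reads with 2 of the members. The coding sequences of Ly6c2 (GRCm39, chr15:74980003-74988467, minus strand) and its neighbour Ly6c1 have 393 bases each, of which 9 differ (97.7% identity), and 39 of 244 windows of 150 bases, the length of the reads, were the same in both genes. Those of Lyz2 (chr10:117111557-117118346, minus strand) and Lyz1 have 444 bases each, of which 22 differ (95.0% identity), and 0 of 295 windows were shared. The first 150 coding bases of each canonical transcript (GENCODE M39) are shown to let the pairs be compared, with the bases that differ within a pair in capitals.
Ly6c2: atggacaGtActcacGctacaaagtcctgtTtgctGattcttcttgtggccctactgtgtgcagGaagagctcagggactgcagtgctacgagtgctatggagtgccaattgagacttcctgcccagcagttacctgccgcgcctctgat
Ly6c1: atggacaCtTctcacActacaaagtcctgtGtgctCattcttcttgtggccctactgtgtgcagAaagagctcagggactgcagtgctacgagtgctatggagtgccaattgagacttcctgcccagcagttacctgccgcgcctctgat
Lyz2: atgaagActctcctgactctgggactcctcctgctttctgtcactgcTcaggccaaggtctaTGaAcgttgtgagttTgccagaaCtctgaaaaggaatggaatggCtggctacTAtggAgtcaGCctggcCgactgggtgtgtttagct
Lyz1: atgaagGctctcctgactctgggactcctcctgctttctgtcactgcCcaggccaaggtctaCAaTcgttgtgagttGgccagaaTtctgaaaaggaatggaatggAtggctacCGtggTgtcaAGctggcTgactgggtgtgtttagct
Ly6c1 held between 3.59% (maternal uninjected) and 18.7% (recipient DC control pIUT) of the counts of the Ly6c2 and Ly6c1 pair. Lyz1 held between 0.0195% and 1.31% of the counts of its pair. The division of reads between Ly6c2 and Ly6c1 is therefore uncertain for reads within the shared windows, whereas within the coding sequence every read-length window tells Lyz2 from Lyz1.

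PU.1, encoded by Spi1, is a transcription factor needed for the myeloid lineage, and the core of its site is read as GAGGAA. Promoters of 300 bases (RefSeq, GRCm38.p6) were at hand for 5 of the 8 genes and were searched on both strands for GAGGAA, the only motif searched. It was present in those of Ly6c2, F13a1 and S100a4 and not in those of Cx3cr1 and Lyz2. The same letters were in 28.3% of all 32851 promoters and in at least 1 promoter of 31.3% of 27025 genes, so that a match is a description only. The 250 bases before the start site are shown for Ly6c2 (chr15:75111972-75112221, minus strand, motif 108 bases before the start) and F13a1 (chr13:37050245-37050494, minus strand, motif 66 bases before the start), with the motif in capitals.
Ly6c2 promoter: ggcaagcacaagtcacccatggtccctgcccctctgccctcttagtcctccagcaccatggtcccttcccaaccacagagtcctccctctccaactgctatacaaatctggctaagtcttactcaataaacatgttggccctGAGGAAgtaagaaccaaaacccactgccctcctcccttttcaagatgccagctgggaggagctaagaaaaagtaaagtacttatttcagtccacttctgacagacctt
F13a1 promoter: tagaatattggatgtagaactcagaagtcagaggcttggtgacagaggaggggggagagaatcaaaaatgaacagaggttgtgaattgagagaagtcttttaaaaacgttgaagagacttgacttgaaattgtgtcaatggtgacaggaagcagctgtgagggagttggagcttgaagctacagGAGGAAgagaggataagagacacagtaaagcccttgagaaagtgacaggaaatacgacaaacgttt

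The members were found at very different levels. Relative to exon length, the mean level over the 8 libraries was 4030 CPM per kb for Lyz2, 153 for Cd14, 119 for Ly6c2, 50.3 for S100a4, 26.5 for F13a1, 19.4 for Csf1r, 4.58 for Fn1 and 4.53 for Cx3cr1. The highest level of Csf1r, Cx3cr1, F13a1 and Fn1 was in recipient uninjected cells, that of Ly6c2 and Lyz2 in recipient DC control mIUT cells, that of S100a4 in maternal uninjected cells and that of Cd14 in maternal DC control pIUT cells. The maternal DC control pIUT library was the lowest of the 8 for 5 members, among them Csf1r, whose order between the maternal pIUT pools changed with the scaling, and the maternal DC-depleted pIUT library was lowest for F13a1 and Cd14. With library size alone, Csf1r was highest in recipient DC-depleted pIUT in place of recipient uninjected cells. The mean of log2(CPM + 1) over the 8 members was 7.80, 6.25, 3.95 and 3.68 in trafficked maternal cells of the uninjected, DC control mIUT, DC control pIUT and DC-depleted pIUT groups, and 8.50, 6.50, 6.71 and 7.54 in recipient cells of the same groups.

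**Figure D1:**
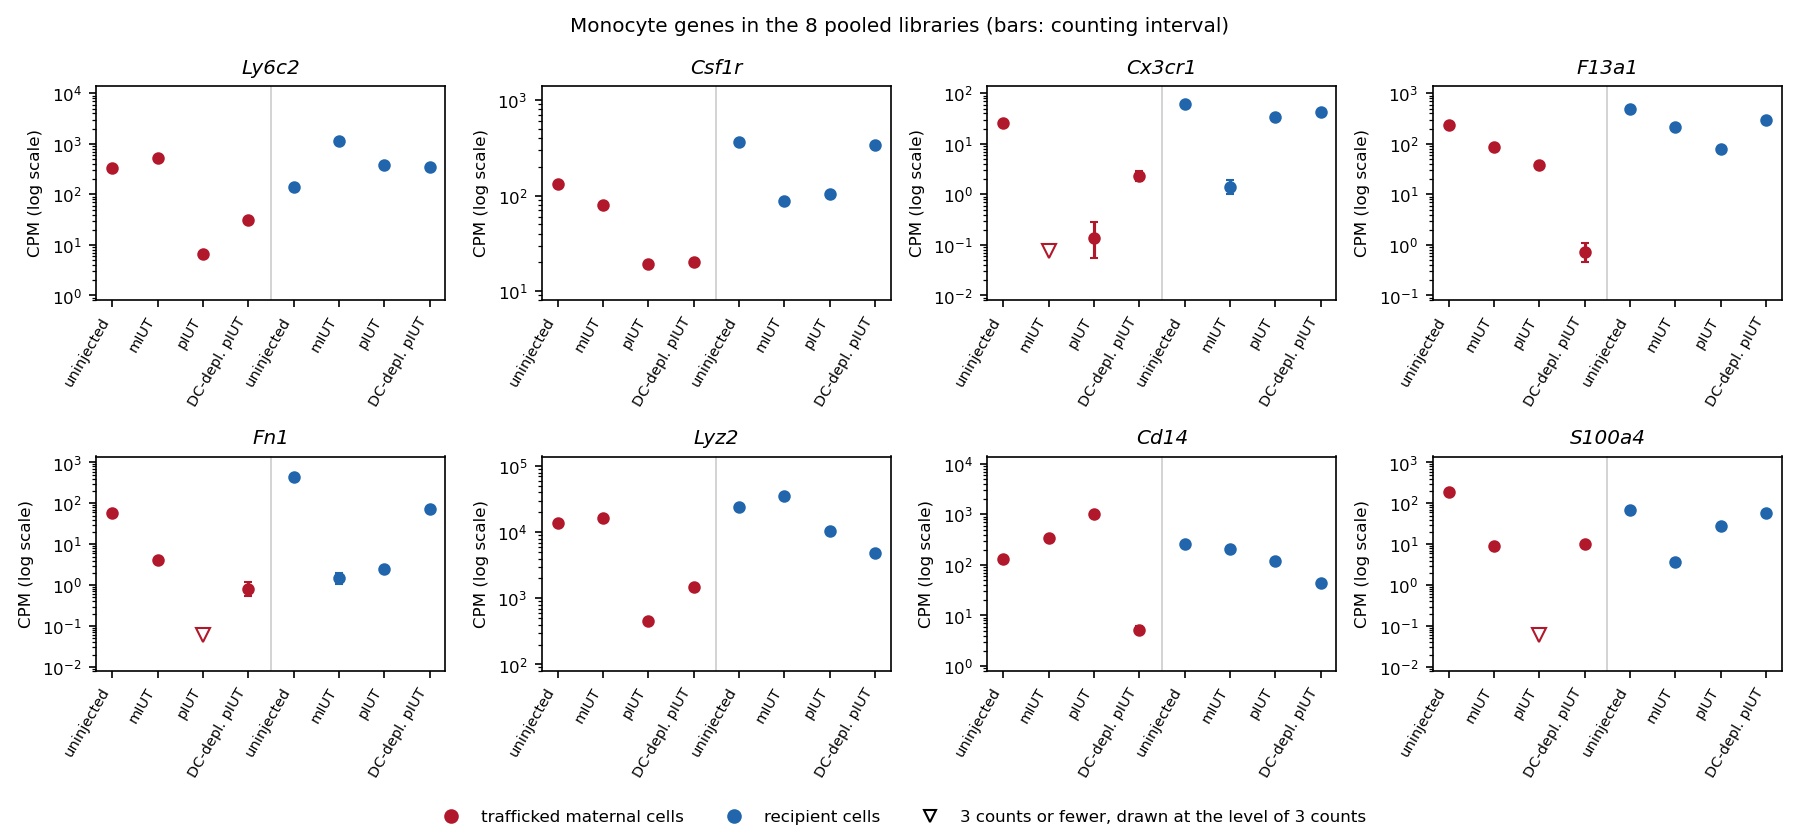
CPM (log scale) of each monocyte gene in the 8 pooled libraries, with trafficked maternal cells in red, recipient cells in blue, bars for the 95% counting interval and open triangles for counts of 3 or fewer drawn at the level of 3 counts. The maternal DC control pIUT library is the lowest for 5 of the 8 genes (Csf1r by a margin that changes sign with the scaling), whereas Cd14 is highest there at 1012 CPM.

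Csf1r (chr18:61229714-61266535, plus strand) encodes the receptor for the growth factors CSF1 and IL-34. In trafficked maternal cells its level was 134 CPM in the uninjected library, 80.3 after mIUT, 19.3 after pIUT and 19.9 after DC-depleted pIUT. In recipient cells it was 361 CPM in the uninjected library, 87.3 after mIUT, 105 after pIUT and 335 after DC-depleted pIUT. The range of 18.7-fold was the narrowest of the 8 genes, and the lowest 2 libraries, both maternal pIUT pools, had overlapping counting intervals.

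Cx3cr1 (chr9:119877749-119898945, minus strand) encodes the receptor for fractalkine. It was at 26.5 CPM in maternal uninjected cells, had 0 counts in the maternal DC control mIUT library, had 7 counts (0.138 CPM) in DC control pIUT and was at 2.36 CPM in DC-depleted pIUT. Recipient cells had 60.8 CPM in the uninjected library, 1.43 after mIUT, 33.7 after pIUT and 43.7 after DC-depleted pIUT. Both mIUT libraries were thus low for Cx3cr1, and the 3 other recipient libraries were above all 4 maternal ones. Counting intervals overlapped between maternal DC control mIUT and pIUT, and between recipient DC control mIUT and maternal DC-depleted pIUT.

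Cd14 (chr18:36858120-36859851, minus strand), the co-receptor that hands bacterial lipopolysaccharide to TLR4, had another order. Its level in trafficked maternal cells was 132 CPM in the uninjected library, 348 after mIUT, 1012 after pIUT and 5.24 after DC-depleted pIUT. Recipient cells had 256, 205, 120 and 44.7 CPM in the same order. The highest and the lowest of the 8 libraries were therefore the 2 maternal pIUT pools, 193-fold apart. Within recipient cells the DC-depleted pIUT library was the lowest.

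Ly6c2 encodes a GPI-anchored surface protein recognised as Ly6C, the marker of classical monocytes. Maternal cells had 331 CPM in the uninjected library, 537 after mIUT, 6.52 after pIUT and 31.6 after DC-depleted pIUT. Recipient cells had 142, 1147, 379 and 346 CPM in the same order. Both maternal pIUT libraries lay below the 6 others, whose levels were at least 142 CPM. With Ly6c1 added, the lowest and highest levels were 7.35 CPM (maternal DC control pIUT) and 1367 CPM (recipient DC control mIUT), in the same libraries.

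Lyz2 encodes lysozyme, a secreted enzyme that cuts bacterial cell walls. It was at 13900 CPM in maternal uninjected cells, 16690 after mIUT, 458 after pIUT and 1488 after DC-depleted pIUT, and at 24060, 35300, 10420 and 4890 CPM in recipient cells. It held between 0.0587% (maternal DC control pIUT) and 2.43% (recipient DC control mIUT) of all counts of a library. As with Ly6c2, both maternal pIUT libraries were below the 6 others and both mIUT libraries were the highest of their origin.

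F13a1 (chr13:37051152-37234277, minus strand) encodes the catalytic chain of clotting factor XIII, which cross-links fibrin and which monocytes, macrophages and platelets hold within the cell. Maternal cells had 235 CPM in the uninjected library, 86.6 in DC control mIUT, 38.1 after pIUT and only 24 counts (0.727 CPM) in DC-depleted pIUT. Recipient cells had 488, 216, 80.0 and 294 CPM. The DC-depleted pIUT library was thus the lowest of the maternal libraries and the second-highest of the recipient ones.

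Fn1 (chr1:71624673-71692419, minus strand) encodes fibronectin, a matrix protein that cells bind through integrins. It was at 59.3 CPM in maternal uninjected cells, 4.03 in DC control mIUT, 2 counts (0.0395 CPM) after pIUT and 27 counts (0.818 CPM) in DC-depleted pIUT. Recipient cells had 440 CPM in the uninjected library, 43 counts (1.50 CPM) in DC control mIUT, 2.50 CPM after pIUT and 71.5 CPM in DC-depleted pIUT. Only 3 of the 8 libraries, both uninjected ones and recipient DC-depleted pIUT, had more than 5 CPM. Counting intervals overlapped between maternal DC-depleted pIUT and recipient DC control mIUT.

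S100a4 (chr3:90511074-90513354, plus strand) encodes a small calcium-binding protein linked to cell motility. Its level in maternal cells was 190 CPM in the uninjected library, 9.09 in DC control mIUT and 10.1 in DC-depleted pIUT, with overlapping counting intervals between the last 2, and it had 0 counts in DC control pIUT. Recipient cells had 67.9, 3.70, 28.2 and 56.9 CPM. S100a4 was the only member whose highest level was in the maternal uninjected library.

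To see how trafficked maternal cells differed by treatment, each maternal IUT library was set against the maternal uninjected library, which these comparisons share. In DC control mIUT, 3 of the 8 genes were at least 4-fold lower (all genes tested: 36.4%) and 0 were at least 4-fold higher (17.9%). Cx3cr1 was at least 342-fold lower, S100a4 20.9-fold lower (95% counting interval 18.7 to 23.3) and Fn1 14.7-fold lower (12.5 to 17.4). These intervals cover counting error only, and in the maternal mIUT library 4.86% of otherwise expressed genes were under 1 CPM. The other 5 differed by less than 4-fold, from Cd14 at 2.64-fold higher to F13a1 at 2.72-fold lower. The median log2 ratio was -1.09 for the members and -0.60 for all genes tested, and the share of members at least 4-fold lower was close to that of all genes.

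In DC control pIUT, 7 of the 8 were at least 4-fold lower than in maternal uninjected cells (all genes: 23.7%) and 1, Cd14, was at least 4-fold higher (24.2%). Cd14 was 7.67-fold higher (7.45 to 7.89). S100a4 was at least 3195-fold lower, and Fn1 was 1000-fold lower with its 2 counts set to the floor of 3, or 1500-fold lower by the 2 counts themselves (415 to 12390). Cx3cr1 was 191-fold lower (92.6-fold or more by its counting interval), Ly6c2 50.7-fold, Lyz2 30.3-fold, Csf1r 6.91-fold and F13a1 6.18-fold lower. The median log2 ratio of the members was -5.29, while that of all genes was 0.05.

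In DC-depleted pIUT, all 8 were at least 4-fold lower than in maternal uninjected cells (all genes: 26.1% lower and 23.6% higher), with a median log2 ratio of -3.86 against -0.02 for all genes. The differences ran from 6.70-fold for Csf1r and 9.34-fold for Lyz2 to 72.5-fold for Fn1 and 324-fold for F13a1. Cd14 was 25.2-fold lower (21.7 to 29.5), where DC control pIUT had it higher.

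**Figure D2:**
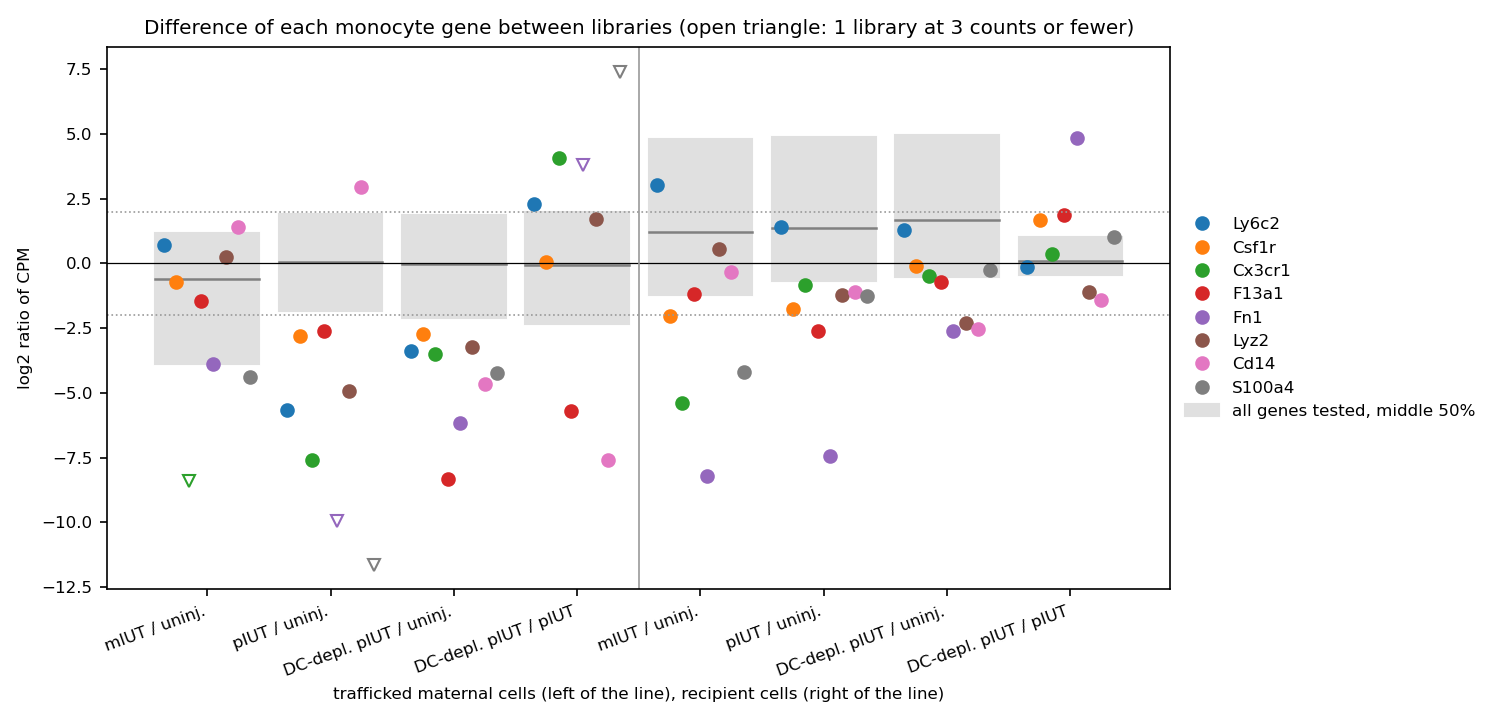
Log2 ratio of CPM for each monocyte gene between 2 libraries of the same origin, with grey boxes for the middle 50% and grey lines for the median of all genes tested, and dotted lines at 4-fold. In maternal DC-depleted pIUT cells all 8 genes lie below the lower dotted line relative to uninjected, whereas in recipient cells 3 do.

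For maternal DC depletion, DC-depleted pIUT was set against DC control pIUT. Each side is 1 pool, so that depletion and pool cannot be told apart. In trafficked maternal cells 4 of the 8 genes were at least 4-fold higher (all genes: 24.9%) and 2 were at least 4-fold lower (28.2%). S100a4 was at least 170-fold higher, Cx3cr1 17.1-fold higher (7.90 to 43.9), Fn1 13.8-fold higher against the floor, or 20.7-fold on 27 against 2 counts (5.20 to 180), and Ly6c2 4.84-fold higher (4.27 to 5.50). Cd14 was 193-fold lower and F13a1 52.4-fold lower (35.1 to 81.9). Lyz2 was 3.25-fold higher, and Csf1r had a log2 ratio of 0.05, which became -0.54, -0.11 and -0.21 under 3 other scalings. The median log2 ratio was 1.99 for the members and -0.07 for all genes. Other genes of the monocyte line did not share this median. Of the 16 other genes of classical monocytes 4 were at least 4-fold higher and 5 lower (median -0.02), of 7 non-classical ones tested 1 was higher and 1 lower (-0.12), and of 9 growth factors, receptors and transcription factors tested 0 were higher and 6 lower (-2.48). Lists of other cell types went in both directions. At least 4-fold higher and lower were 7 and 2 of 13 granulocyte genes (median 2.63), 8 and 0 of 12 macrophage genes (2.46), 5 and 2 of 8 dendritic cell genes tested (2.78), 2 and 1 of 4 platelet genes tested (2.83) and 4 and 0 of 10 hepatocyte genes (1.85). The medians were 0.94 for NK and T cells, 0.41 for erythroid cells, 0.12 for fibroblasts, -1.25 for B cells and -5.30 for endothelial cells, with all 4 endothelial genes tested lower. Their part in the members' ratios was not tested. With library size alone as the scaling, Ly6c2 was at a log2 ratio of 1.69 and no longer past 4-fold, and the share of higher genes among all genes past 4-fold was 36.3% in place of 46.9%.

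Recipient cells of the same 2 groups differed less. In DC-depleted pIUT 1 gene, Fn1, was at least 4-fold higher than in DC control pIUT (all genes: 14.4%), at 28.6-fold (23.7 to 34.8), and 0 were at least 4-fold lower (7.21%). F13a1 was 3.67-fold higher (past 4-fold with library size alone), Csf1r 3.19-fold and S100a4 2.02-fold higher, while Cd14 was 2.68-fold and Lyz2 2.13-fold lower. Cx3cr1 was 1.30-fold higher and Ly6c2 1.10-fold lower, the latter with a changed sign under library size alone. Members had a median log2 ratio of 0.69, against 0.10 for all genes.

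Donor type was compared as DC control pIUT against DC control mIUT. In trafficked maternal cells 7 of the 8 had the 10 counts needed in at least 1 library, and 5 of these were at least 4-fold lower (all genes: 19.4%), with 0 at least 4-fold higher (37.1%). S100a4 was at least 153-fold lower, Fn1 67.9-fold lower at the floor, or 102-fold by its 2 counts (27.7 to 849), Ly6c2 82.3-fold, Lyz2 36.4-fold and Csf1r 4.16-fold lower, the last falling short of 4-fold under 3 other scalings. Cd14 was 2.91-fold higher, or past 4-fold with library size alone. The median log2 ratio of the 7 members was -5.19 (-4.35 with a floor of 10 counts), against 0.51 for all genes.

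In recipient cells the same comparison gave 2 genes at least 4-fold higher (all genes: 20.3%), Cx3cr1 at 23.6-fold (17.3 to 33.0) and S100a4 at 7.63-fold (6.26 to 9.39), and 0 at least 4-fold lower (13.9%). Lyz2 was 3.39-fold and Ly6c2 3.02-fold lower. Members had a median log2 ratio of -0.26 against 0.20 for all genes. It was 0.46 with library size alone, under which 79.0% in place of 59.3% of all genes past 4-fold were higher.

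Recipient cells of the IUT groups were also set against the recipient uninjected library, which stands apart as described. The median log2 ratio of all genes in these comparisons was 1.22 to 1.69. In DC control mIUT, Ly6c2 was 8.11-fold higher (7.90 to 8.32; all genes at least 4-fold higher: 45.0%) and 4 members were at least 4-fold lower (17.6%), namely Fn1 at 293-fold, Cx3cr1 at 42.6-fold, S100a4 at 18.4-fold and Csf1r at 4.14-fold. In DC control pIUT, 0 were at least 4-fold higher (45.4%) and 2 were at least 4-fold lower (13.3%), Fn1 at 176-fold and F13a1 at 6.10-fold. In DC-depleted pIUT, 0 were at least 4-fold higher (47.1%) and 3 were at least 4-fold lower (11%), Fn1 at 6.15-fold, Cd14 at 5.73-fold and Lyz2 at 4.92-fold, the last with fewer than 4-fold under library size alone. The median log2 ratios of the members were -1.61, -1.24 and -0.60 in the 3 groups, where those of all genes were 1.22, 1.36 and 1.69. Fn1 was the only member at least 4-fold lower in all 3 comparisons, which share 1 library.

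Maternal cells were compared with recipient cells of the same pups. In the uninjected group 1 member, Fn1, was at least 4-fold lower in maternal cells (7.41-fold, all genes: 15.1%) and 0 were at least 4-fold higher (41.3%), while S100a4 was 2.79-fold and Ly6c2 2.34-fold higher. In DC control mIUT, Cx3cr1 was at least 18.5-fold lower, the only 1 of the 8 past 4-fold (all genes: 35.9% lower and 13.4% higher), and the members' median of -0.60 was close to that of all genes at -0.66. In DC control pIUT, 6 were at least 4-fold lower in maternal cells (25.3%) and Cd14 was 8.44-fold higher (19.0%), with a median of -4.95 (-4.08 with a floor of 10 counts) against -0.27. S100a4 was at least 476-fold lower there, Cx3cr1 244-fold, Ly6c2 58.2-fold and Lyz2 22.7-fold lower. In DC-depleted pIUT, 7 were at least 4-fold lower (28.3%) and 0 higher (9.61%), with a median of -3.76 (-4.39 with library size alone) against -0.66, from S100a4 at 5.66-fold to F13a1 at 405-fold, and Lyz2 was 3.29-fold lower. Under library size alone Lyz2 was past 4-fold as well, and the share of higher genes among all genes past 4-fold in this last comparison was 12.4% in place of 25.3%. Across the 4 treatments, which give 4 pairs of libraries with none in common, 4 of the 8 members (Csf1r, Cx3cr1, F13a1 and Lyz2) were lower in maternal cells in each pair and 0 were higher in each (all genes: 9.36% lower and 3.84% higher). The log2 ratios, in the order uninjected, mIUT, pIUT and DC-depleted pIUT, were -0.79, -1.08, -4.51 and -1.72 for Lyz2 and -1.05, -1.32, -1.07 and -8.66 for F13a1. Csf1r was at -0.12 in mIUT, and its sign there changed with DESeq2 size factors and with library size alone.

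Ratios between members of the same library do not depend on the scaling. Cd14 per Csf1r was 0.989, 4.34, 52.4 and 0.263 in the maternal uninjected, DC control mIUT, DC control pIUT and DC-depleted pIUT libraries, and 0.709, 2.35, 1.14 and 0.134 in recipient cells. In both origins it was thus lowest in DC-depleted pIUT. Csf1r per Ly6c2 was 0.404, 0.150, 2.96 and 0.631 in maternal cells and 2.55, 0.0761, 0.277 and 0.967 in recipient cells, with the lowest ratio of each origin in mIUT. The ratio is from CPM without regard to gene length.

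**Figure D3:**
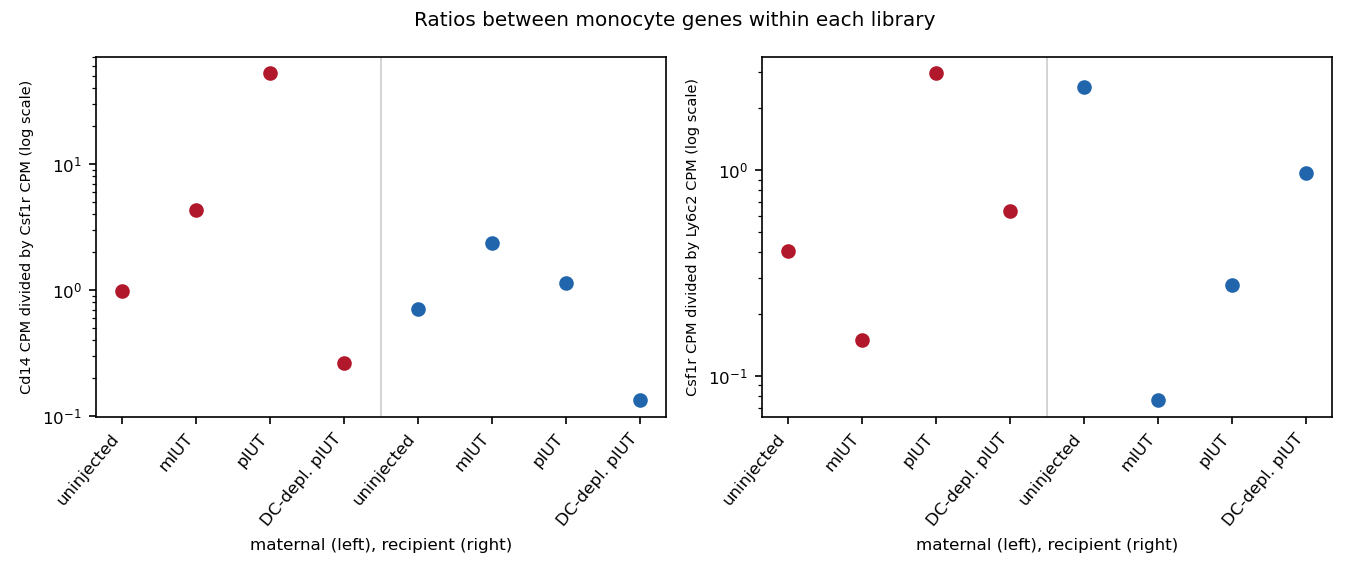
Ratio of Cd14 to Csf1r (left) and of Csf1r to Ly6c2 (right) in CPM within each library, on log axes, with trafficked maternal cells in red and recipient cells in blue. The maternal DC control pIUT library has the highest value in both panels, 52.4 and 2.96.

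Genes of other cell types that share the members moved with some of them. The summed level of 13 granulocyte genes (among them Mpo, Elane, S100a8 and Ly6g) was 2906, 175200, 1846 and 11040 CPM in maternal uninjected, DC control mIUT, DC control pIUT and DC-depleted pIUT cells, and 16960, 288500, 50140 and 21470 CPM in recipient cells. All 13 were detectable in 7 libraries, while in maternal DC control pIUT Mpo, Elane, Prtn3 and Ctsg were at 3 counts or fewer. The libraries with the highest Ly6c2 and Lyz2 of each origin, both mIUT, were those with the highest granulocyte sum. Over the 8 libraries, Pearson's r of log2(CPM + 1) with this list was 0.75 for Ly6c2 and 0.67 for Lyz2, but between -0.18 and 0.25 for the 6 other members. This was not particular to the granulocyte list, since r was 0.86 and 0.87 with the 16 other classical monocyte genes, 0.83 and 0.79 with the 10 non-classical ones and 0.75 and 0.79 with the 17 partners. The part of granulocytes in the levels of Ly6c2 and Lyz2 was not tested.

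The summed level of 12 macrophage genes (among them Adgre1, C1qb, Vsig4 and Timd4) was 845, 163, 75.8 and 293 CPM in maternal cells and 4089, 25.1, 245 and 1103 CPM in recipient cells. The recipient uninjected and DC-depleted pIUT libraries, which had the most Csf1r and Fn1, also had the most of these genes. Between 4 (maternal DC control mIUT) and 12 (both DC-depleted pIUT libraries) of the 12 were detectable, and Clec4f, Spic, Vcam1, Marco and Mertk were at 3 counts or fewer in both uninjected libraries. Pearson's r with this list was 0.88 for Fn1, 0.80 for S100a4, 0.79 for Cx3cr1 and 0.65 for Csf1r over the 8 libraries. This was not particular to the macrophage list, since r with the 10 dendritic cell genes was 0.85 for Cx3cr1 and 0.82 for S100a4 (0.83 and 0.69 without Ly6d), r with the 6 platelet genes was 0.79 for Cx3cr1, and r with 6 B cell genes was 0.79 for S100a4, 0.76 for Fn1 and 0.67 for Csf1r. The part of macrophages in these levels was not tested.

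Fn1 is also made by hepatocytes, and 10 hepatocyte genes summed to 253, 4639, 270 and 887 CPM in maternal cells and 14280, 205, 76.9 and 1632 CPM in recipient cells. Of these 10, 6 to 10 were detectable in each library. Fn1 and the hepatocyte sum were both highest in recipient uninjected cells, and the second-highest sum was in maternal DC control mIUT, where Fn1 was at 4.03 CPM. In recipient DC-depleted against DC control pIUT, where Fn1 was 28.6-fold higher, all 10 hepatocyte genes were at least 4-fold higher (median log2 ratio 8.87), as were 6 of 7 fibroblast genes tested (5.51) and 8 of 12 macrophage genes (3.94), where 14.4% of all genes were. The 8 fibroblast genes, a further source of Fn1 and S100a4, summed to 0 to 95.1 CPM and were all at 3 counts or fewer in recipient uninjected cells, where Fn1 was at 440 CPM, in the library in which 9.51% of otherwise expressed genes were under 1 CPM. The 6 megakaryocyte and platelet genes, which share F13a1, summed to 101, 0, 18.9 and 33.4 CPM in maternal cells and 371, 4.36, 17.3 and 95.7 CPM in recipient cells. In maternal DC control mIUT all 6 were at 3 counts or fewer, and F13a1 was at 86.6 CPM. In maternal DC-depleted pIUT 4 of the 6 were detectable, and F13a1 was at 0.727 CPM. The part of these cell types in the levels was not tested.

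The 8 NK and T cell genes, from cells that can also hold Cx3cr1, S100a4 and Ly6c2, summed to 1835, 516, 189 and 259 CPM in maternal cells and 241, 517, 1735 and 967 CPM in recipient cells, with 4 to 8 detectable. The 10 dendritic cell genes summed to 1802, 12.1, 38.6 and 102 CPM in maternal cells and 408, 19.9, 288 and 198 CPM in recipient cells, with 2 to 10 detectable. Ly6d, which B-lineage cells also use, held 1564 CPM of the sum in maternal uninjected and 303 CPM in recipient uninjected cells. Without it the 9 other genes summed to 238, 6.66, 34.6 and 83.2 CPM in maternal cells and 105, 11.1, 137 and 149 CPM in recipient cells. Zbtb46 had another order, at 5.35 CPM in maternal uninjected and 76.5 CPM in maternal DC-depleted pIUT cells. S100a4 and both sums were highest among maternal cells in the uninjected library, and the part of these cells was not tested. The 6 B cell genes summed to 13100, 662, 170 and 62.1 CPM in maternal cells and 2452, 177, 651 and 643 CPM in recipient cells, with 4 to 6 detectable. All 6 were at least 4-fold lower in each maternal IUT library than in maternal uninjected cells, with median log2 ratios of -4.77, -6.27 and -7.85. In these comparisons 36.4%, 23.7% and 26.1% of all genes were lower, with medians of -0.60, 0.05 and -0.02. The 6 erythroid genes summed to 67670, 15060, 99540 and 146100 CPM in maternal cells and 92210, 155, 29420 and 19360 CPM in recipient cells, with 5 or 6 detectable, and were highest in the 2 maternal pIUT pools. The 6 endothelial genes summed to 44.2, 45.8, 44.0 and 0.485 CPM in maternal cells and 58.6, 6.84, 26.1 and 28.3 CPM in recipient cells, with 1 to 5 detectable. The part of B, erythroid and endothelial cells in the members' levels was not tested. Itgax, whose promoter drives the toxin receptor, was at 10.5 CPM in maternal uninjected cells, at 0 counts in DC control mIUT, at 12.1 CPM in DC control pIUT and at 1 count (0.0303 CPM) in DC-depleted pIUT. Recipient cells had 0 counts in the uninjected library and 2.55, 8.13 and 13.2 CPM in the IUT groups.

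**Figure D4:**
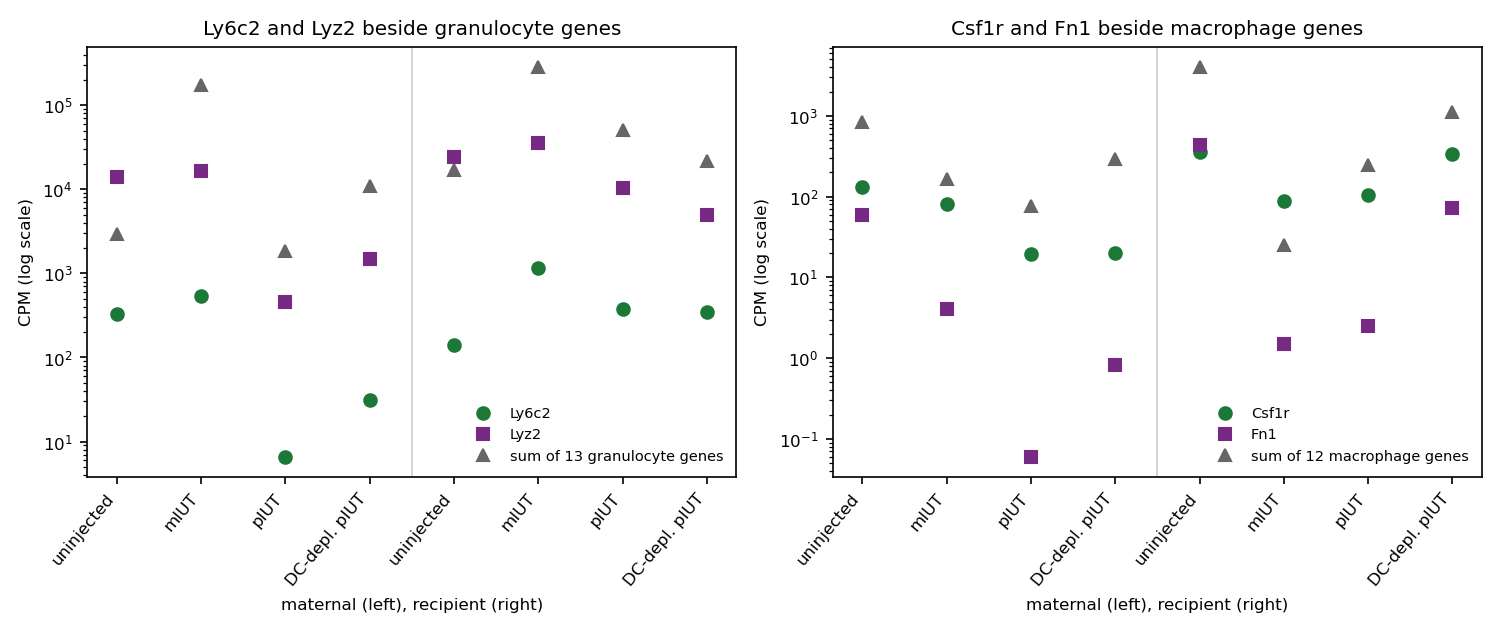
CPM (log scale) of Ly6c2 and Lyz2 beside the sum of 13 granulocyte genes (left), and of Csf1r and Fn1 beside the sum of 12 macrophage genes (right), in the 8 libraries, with Fn1 of maternal DC control pIUT drawn at the level of 3 counts. The granulocyte sum peaks in both mIUT libraries (175200 and 288500 CPM), and the macrophage sum in recipient uninjected (4089 CPM).

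Other genes of the monocyte line were counted from lists drawn up around the members. Of 16 other genes of classical monocytes, all tested in maternal cells, 9 were at least 4-fold lower and 3 higher in DC control mIUT than in maternal uninjected cells, 10 lower and 2 higher in DC control pIUT, and 13 lower and 0 higher in DC-depleted pIUT, with median log2 ratios of -3.72, -4.06 and -4.23. Of all genes tested in these 3 comparisons, 36.4%, 23.7% and 26.1% were at least 4-fold lower and 17.9%, 24.2% and 23.6% higher. Of 15 tested in recipient cells, 6, 5 and 1 were at least 4-fold lower and 2, 0 and 0 higher in the same groups, with medians of -0.64, -1.32 and -0.26, where 17.6%, 13.3% and 11% of all genes were lower and 45.0%, 45.4% and 47.1% higher. The medians of all genes were -0.60, 0.05 and -0.02 in the maternal and 1.22, 1.36 and 1.69 in the recipient comparisons. Chil3, a lectin-like secreted protein, was the most abundant of the list, at 2694, 6006, 60.2 and 145 CPM in maternal cells and 599, 14620, 1213 and 240 CPM in recipient cells, with the lowest maternal value in DC control pIUT like Ly6c2 and Lyz2. Cybb, the catalytic subunit of the phagocyte oxidase, was at 448, 1075, 29.6 and 14.7 CPM in maternal cells and at 597, 1993, 608 and 284 CPM in recipient cells. Plac8 was at 940, 459, 13.6 and 195 CPM and at 314, 272, 312 and 761 CPM. The chemokine receptor gene Ccr1 was at 76.6, 824, 440 and 25.8 CPM in maternal cells and 66.0, 1196, 119 and 55.3 CPM in recipient cells. The 4 genes did not share 1 order, since Chil3 and Plac8 were lowest among maternal cells in DC control pIUT and Cybb and Ccr1 in DC-depleted pIUT, and Plac8 was highest there in the uninjected library and the 3 others in mIUT.

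Of 10 genes of non-classical monocytes, 9 were tested in each comparison of a maternal IUT library with maternal uninjected cells. In DC control mIUT 5 were at least 4-fold lower and 3 higher, in DC control pIUT 4 lower and 0 higher, and in DC-depleted pIUT 5 lower and 0 higher, with medians of -2.07, -1.71 and -2.54, beside 36.4%, 23.7% and 26.1% of all genes lower and 17.9%, 24.2% and 23.6% higher. In recipient cells of the same groups 4 of 8, 3 of 9 and 5 of 10 tested were higher and 2, 2 and 0 lower. Among all genes tested there, 45.0%, 45.4% and 47.1% were higher and 17.6%, 13.3% and 11% lower. The 4 of 8 and the 5 of 10 higher were thus close to the background, and the 3 of 9 lay below it. The medians were 1.36, 0.94 and 1.24 where those of all genes were 1.22, 1.36 and 1.69. Nr4a1, the nuclear receptor that these cells need, was at 144, 0.0775, 137 and 3.24 CPM in maternal cells and at 64.5, 22.0, 218 and 85.4 CPM in recipient cells. Itgal, the integrin chain CD11a, was at 180, 42.8, 14.4 and 8.84 CPM and at 149, 205, 171 and 184 CPM, so that its level varied little among recipient cells. Fcgr4, an Fc receptor, was highest in both mIUT libraries, at 115 and 244 CPM, and Cd36, a scavenger receptor, was at 125 CPM in maternal mIUT and 2.51 CPM in recipient mIUT.

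Among 11 growth factors, their receptors and transcription factors of the line, 10 were tested in the maternal comparisons with uninjected cells. At least 4-fold lower were 1 after mIUT, 2 after pIUT and 9 after DC-depleted pIUT, and 1, 1 and 0 were higher, with medians of 0.64, -1.30 and -4.86. Of all genes 36.4%, 23.7% and 26.1% were lower, which the 1 and the 2 of 10 in mIUT and pIUT did not exceed. The shares of all genes higher were 17.9%, 24.2% and 23.6%. In recipient cells 5 of 11, 1 of 10 and 1 of 10 tested were higher and 3, 3 and 2 lower. The medians were 1.79, -0.22 and -0.73. Among all genes tested there, 45.0%, 45.4% and 47.1% were higher and 17.6%, 13.3% and 11% lower, with medians of 1.22, 1.36 and 1.69. The 5 of 11 higher in mIUT was thus close to the background, and both counts of 1 of 10 lay below it. Spi1 (PU.1) was at 173, 739, 61.0 and 12.5 CPM in maternal cells and at 218, 1233, 193 and 132 CPM in recipient cells. Cebpb, a factor needed by non-classical monocytes, was at 543, 764, 726 and 25.3 CPM in maternal cells and 692, 536, 231 and 207 CPM in recipient cells. Irf8, a factor of the monocyte and dendritic lineages, was at 420, 64.2, 9.81 and 6.09 CPM and at 114, 38.8, 170 and 193 CPM. Csf3r, the G-CSF receptor of granulocytes, was at 75.9, 248, 170 and 0 CPM and at 128, 604, 114 and 76.3 CPM. For all 4 the maternal DC-depleted pIUT library was the lowest of the 8.

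Of 17 ligands and partners of the members, 16 were tested in maternal DC control mIUT against uninjected cells, with 6 at least 4-fold lower and 4 higher, and 15 in both pIUT groups, with 5 and 7 lower and 4 and 1 higher. Their medians were 0.36, -1.47 and -1.38. Of all genes 36.4%, 23.7% and 26.1% were lower and 17.9%, 24.2% and 23.6% higher, so that the 6 of 16 lower in mIUT and the 4 of 15 higher in pIUT were close to the background. In recipient cells 10 of 16, 5 of 15 and 7 of 17 tested were higher and 4, 3 and 3 lower. The medians were 2.74, 0.57 and 0.34. Among all genes tested there, 45.0%, 45.4% and 47.1% were higher and 17.6%, 13.3% and 11% lower, with medians of 1.22, 1.36 and 1.69. The 5 of 15 and the 7 of 17 higher in the pIUT groups did not exceed these shares, and both medians lay below those of all genes. S100a11, S100a6 and S100a10, relatives of S100a4, differed in order from it. S100a11 was highest in both mIUT libraries (1654 and 3344 CPM), as was S100a6 (736 and 1023 CPM), whereas S100a4 was at 9.09 and 3.70 CPM there. S100a10 was at 536, 194, 12.7 and 62.0 CPM in maternal cells and at 230, 22.1, 102 and 164 CPM in recipient cells, with its highest level in maternal uninjected and its lowest in maternal DC control pIUT like S100a4. Itgb1, an integrin chain of the fibronectin receptors, was at 159, 23.5, 163 and 80.7 CPM and at 184, 89.3, 135 and 171 CPM.

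Members varied together to different degrees, here given as a description over 8 libraries that differ in origin, treatment and cell makeup. Pearson's r of log2(CPM + 1) was highest between Ly6c2 and Lyz2 (0.90), Csf1r and Fn1 (0.87), Cx3cr1 and S100a4 (0.85) and Csf1r and F13a1 (0.83). It was lowest between Cd14 and S100a4 (-0.33), and Cd14 had 0.56 with F13a1 and 0.12 or less with each other member. Among 9689 other genes with at least 10 CPM in at least 2 libraries, the pattern most like the mean of the 8 members was that of Pik3cd (r = 0.963), a leukocyte PI3 kinase subunit, followed by Tbc1d1 (0.953), Cdc14b (0.948), Pisd (0.947), Elovl5 (0.945), Il10ra (0.943), Rasgrp2 (0.943) and Pdia3 (0.940). Pik3cd was at 190, 45.6, 11.9 and 5.06 CPM in maternal cells and at 198, 108, 48.3 and 96.0 CPM in recipient cells, and thus lowest in the 2 maternal pIUT libraries, as were Csf1r, Ly6c2, Lyz2, F13a1 and Fn1 but not Cx3cr1, Cd14 and S100a4. Il10ra, the interleukin-10 receptor, was at 74.3 CPM in maternal uninjected cells and at 0.0989 and 0.121 CPM in the same 2 libraries.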

How the data were processed

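Trafficked maternal and recipient cells were sequenced in 8 pooled libraries, with 0 columns of the table left out. The table deposited by the authors holds estimated counts for each gene, from salmon in an RNA-seq pipeline against GRCm39 with GENCODE M26 and not normalized, whereas the study's methods name featureCounts for the counting. The submitters' processing notes also name bcl2fastq and StringTie. Deposited clonotype tables were not used here. Estimated counts were rounded. Symbols, exon lengths and coding sequences came from GENCODE M39 (97.99% of gene IDs matched) and promoters from RefSeq (GRCm38.p6). No protein sequences were used, in place of the planned ones. TMM factors came from edgeR 4.0.16 in R 4.3.3, and tables were made with Python 3.11.15 and pandas 2.3.3. A log2 ratio of CPM was taken between 2 libraries, with counts of 3 or fewer set to 3, for genes with at least 10 counts in 1 of them (for Fn1 with 2 counts, the ratio of the counts themselves is also given with its interval), and at least 4-fold was counted. With 1 library per group no test was made. At the dispersion of 0.4 that the study's methods set, the SD of a log2 ratio of 2 libraries is 1.29, so that 4-fold is 1.55 such SDs. The calculation was checked on simulated Poisson counts with few genes changed, equally many up and down. That check does not cover libraries in which many genes differ, mostly in 1 direction. Alternatives were library size alone, DESeq2 1.42.0 size factors, TMM on widely counted genes, a floor of 10 counts, edgeR fold changes with prior counts of 0.125 and 5, a 2-fold limit, no filter on low counts, and sums with near copies. The members and 15 further lists (150 genes, all found) were chosen with earlier results of these data known. Named genes were the 8 members, the 4 most abundant of each list of the monocyte line and of partners, the near copies, Itgax and the 8 genes most like the members. Genes named from the lists of other cell types serve as examples of each list.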

Additional observations from a re-analysis of the deposited data

Results flagged for a closer look

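For 5 genes the maternal and the recipient library of a treatment moved at least 2-fold in opposite directions under the same contrast. These were 6 of 39 cases of a member tested in both origins over 5 contrasts, where 19.4% of the cases of all genes met the same rule, so that the share of members did not exceed that of all genes. Under library size alone Cd14 and Lyz2 fell short of 2-fold in recipient cells and Fn1 in pIUT against mIUT was added, and Lyz2 also fell short with TMM on widely counted genes. With 1 library per group the differences were not tested. Against uninjected, Ly6c2 in DC control pIUT had a log2 ratio of -5.66 in maternal cells and 1.42 in recipient cells, a difference of -7.08, and in DC-depleted pIUT -3.39 and 1.29, a difference of -4.68. Cd14 in DC control pIUT against uninjected was at 2.94 and -1.10, a difference of 4.04. These 3 contrasts use the recipient uninjected library, which stands apart, and the next 3 do not. In DC-depleted against DC control pIUT, F13a1 was at -5.71 in maternal and 1.88 in recipient cells, a difference of -7.59, and Lyz2 at 1.70 and -1.09, a difference of 2.79. In pIUT against mIUT, S100a4 was at -7.26, a bound, in maternal cells and 2.93 in recipient cells, so that the difference of -10.19 is a bound as well.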

How the results depend on the processing

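Each group had 1 library, so no library could be left out of a group. Over the 4 pairs of maternal and recipient libraries, an exact sign-flip test has too few pairs to reach significance and was not run, nor was a fit of origin and treatment as additive terms. Of 112 ratios of a member between libraries, 59 were at least 4-fold. Of these, 56 remained so with library size alone, 58 with DESeq2 size factors, 58 with TMM on genes with at least 10 counts in every library, and 59 with a floor of 10 counts and with either edgeR prior count, and 0 changed sign. Those lost under library size alone were Ly6c2 (maternal DC-depleted against DC control pIUT), Csf1r (maternal pIUT against mIUT, lost under each of the 3 other scalings) and Lyz2 (recipient DC-depleted pIUT against uninjected). Library size alone also put 3 further ratios past 4-fold, F13a1 in recipient DC-depleted against DC control pIUT (2 members in place of 1), Cd14 in maternal pIUT against mIUT (1 higher and 4 lower, in place of 0 and 5) and Lyz2 in maternal against recipient DC-depleted pIUT (8 in place of 7). The smaller edgeR prior count put Cx3cr1 in maternal pIUT against mIUT, with 7 against 0 counts, at a log2 value of 5.66, which depends on the prior count. With a 2-fold limit, the members past it were 5 in place of 3 in maternal mIUT against uninjected, 7 in place of 2 in recipient pIUT against uninjected, 6 in place of 1 in recipient DC-depleted against DC control pIUT, 5 in place of 2 in recipient pIUT against mIUT, and 6 in place of 1 in maternal against recipient cells of both the uninjected and the mIUT group. A lower limit counts more genes by construction, and the shares of all genes at least 2-fold higher and lower in these 6 comparisons, in this order, were 27.3% and 45.2%, 52.9% and 21.5%, 25.4% and 14.1%, 36.0% and 27.1%, 47.9% and 25.1%, and 22.3% and 44.6%. The members' median moved by over 1.5-fold in 4 comparisons, from -5.19 to -4.35 (maternal pIUT against mIUT) and from -4.95 to -4.08 (maternal against recipient pIUT) with a floor of 10 counts, the latter to -4.34 with an edgeR prior count of 5, and with library size alone from -3.76 to -4.39 (maternal against recipient DC-depleted pIUT) and from -0.26 to 0.46 (recipient pIUT against mIUT). The dendritic list without Ly6d was added after seeing the data. The scaling moved the median of all genes by up to 0.71 on the log2 scale (recipient pIUT against mIUT, library size alone). Among ratios under 4-fold, signs changed for 5 under library size alone, 2 under DESeq2 size factors, 1 under TMM on widely counted genes and 1 (Cx3cr1, maternal pIUT against mIUT, from 0.84 to -0.39) with a floor of 10 counts. Ratios of Cx3cr1, Fn1 and S100a4 that use the maternal mIUT or pIUT libraries are limited by counts of 0 to 7. These libraries were not sequenced less deeply, with totals of 44558283 and 39477126 counts against 38558603 in maternal uninjected cells. In the maternal uninjected library the same genes had 1031, 2308 and 7375 counts. The cause of the low counts was not tested.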

Other observations

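Further genes, named after their values were seen, bear on the members. Tlr4, the receptor that CD14 serves, was at 21.2, 77.0, 101 and 1.88 CPM in maternal uninjected, DC control mIUT, DC control pIUT and DC-depleted pIUT cells, and at 0, 55.8, 8.06 and 19.0 CPM in recipient cells. Like Cd14, it was highest of the 8 libraries in maternal DC control pIUT. Other genes of this pathway were lower in that library than in maternal uninjected cells. Ly96 was at 11.01 against 19.7 CPM, Myd88 at 41.1 against 114 CPM, Lbp at 0 against 2.65 CPM and Ticam1 at 0 against 13.6 CPM. Csf1, the ligand of the Csf1r product, was at 4.63, 14.3, 134 and 0 CPM in maternal cells and at 0, 15.7, 7.75 and 10.4 CPM in recipient cells, so that its highest level stood in 1 of the 2 maternal pIUT libraries, which had the lowest Csf1r. Ccr2, the chemokine receptor through which classical monocytes leave the marrow, was at 178, 13.3, 0 and 4.03 CPM in maternal cells and at 105, 10.7, 40.0 and 133 CPM in recipient cells. It was not detectable in maternal DC control pIUT, like S100a4, and unlike Ly6c2 it was low in both mIUT libraries. Ly6c1, the near copy of Ly6c2, was 9.29-fold higher in maternal mIUT than in maternal uninjected cells (114.6 against 12.3 CPM), where Ly6c2 was 1.62-fold higher.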
